A study of Mus musculus with 6 samples.

Results

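The sarcomere and excitation-contraction genes described here are 48 named mouse genes for the contractile filaments of skeletal muscle, the factors that assemble them, the membranes that release and take up calcium, and the receptor side of the neuromuscular junction. They were chosen by name, with earlier results of these data known, and each symbol matched 1 gene among the 55487 genes of the deposited count table. RNA was sequenced from muscle stem cells, the resident precursors of muscle fibres, of 10-week-old mice. Cells were taken 60 h after cardiotoxin (CTX), which destroys fibres and so starts regeneration of the muscle. The first group holds 3 libraries of Setdb1 KO mice given tamoxifen, and the second holds 3 libraries of control mice labelled WT and given oil. Tamoxifen and loss of Setdb1 always came together, so the effect of the drug cannot be told apart from that of the deletion. Neither the line that drives recombination nor the deleted exon is named in the sources used here.

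A muscle fibre contracts when thin filaments of actin slide along thick filaments of myosin inside the sarcomere, the repeating unit bounded by Z-discs. The signal starts when acetylcholine opens its receptor at the neuromuscular junction, and it ends in release of calcium from the sarcoplasmic reticulum. That calcium binds troponin, which then moves tropomyosin away from the myosin sites of actin. Proliferating muscle stem cells carry few of these transcripts. Most accumulate when the cells leave the cycle and fuse, a step driven by the transcription factors Myod1 and Myog, and developmental forms are made before adult ones.

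Libraries held between 4052569 and 5690844 counts. Setdb1, the deleted gene, was at 16.5, 12.7 and 14.7 CPM (the usual depth-scaled count, here on TMM-normalised library sizes) in KO libraries, against 34.9, 40.5 and 32.1 CPM in control libraries. All 14 markers of muscle stem cells and myoblasts passed the low-count filter, with summed levels of 1404 to 1577 CPM in KO libraries and 1234 to 1395 CPM in control libraries. Pax7, which defines these cells, was at 26.9 ± 6.56 CPM in KO cells and 26.9 ± 5.70 CPM in control cells (mean ± SD, n = 3 each, as for all means below). Neutrophil transcripts set libraries apart: S100a9 had 2, 1051 and 385 counts in KO libraries 1, 2 and 3, against 0, 0 and 3406 in control libraries 1, 2 and 3.

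Of the 48 genes, 24 had enough counts to be tested. The low-count filter asked for at least 2.08 CPM, before TMM scaling, in at least 3 libraries of any group. Among the 24 tested, 5 were higher in KO cells (20.8%, against 2.22% of all 11224 genes tested) and 0 were lower (against 0.615% of all genes tested), so that 5 of 24 changed beside 2.83% of all genes (edgeR, adjusted p under 0.05). The 5 were Lmod3, Acta1, Jsrp1, Chrng and Actn3. With KO library 1 left out the count was 2 of 25 tested members (1.15% of all genes were then higher). With KO library 2 or KO library 3 left out it was 3 of 25 and 3 of 26 (1.37% and 1.51%). With control library 1, 2 or 3 left out it was 3 of 26, 4 of 26 and 5 of 25 (1.77%, 1.22% and 2.2% of all genes). It was 3 of 24 with library totals alone (1.53% of all genes higher), with limma-voom (1.48%) and with the replicate number as a block (1.84%). It was 3 of 31 with at least 1 CPM in 3 libraries (1.87%) and 3 of 35 with DESeq2 (1.01%). With no adjustment, 13 were higher and 0 lower at p under 0.05, against 10.1% and 7.64% of all genes. A positive log2 fold change was measured in 21 of 24 (against 50.9% of all genes), and the median was 0.49, beside 0.01 over all genes tested. In 14 of 24 every KO library lay above every control library (12.8% of all genes did so) and in 0 below (11.5% of all genes). Lmod3 entered the test through its KO libraries alone, since 0 of its control libraries reached the filter. Its place among the 5, and in the other counts of this paragraph, therefore adds no support. Klhl41 and Smyd1 reached the filter in 3 KO libraries and 1 control library, so they too were kept only through their KO libraries. The members were chosen with earlier results of these data known. The shares set beside those of all genes therefore describe the list and are not independent support. Bulk RNA does not separate more differentiating cells from more RNA per cell.

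**Figure D1:**
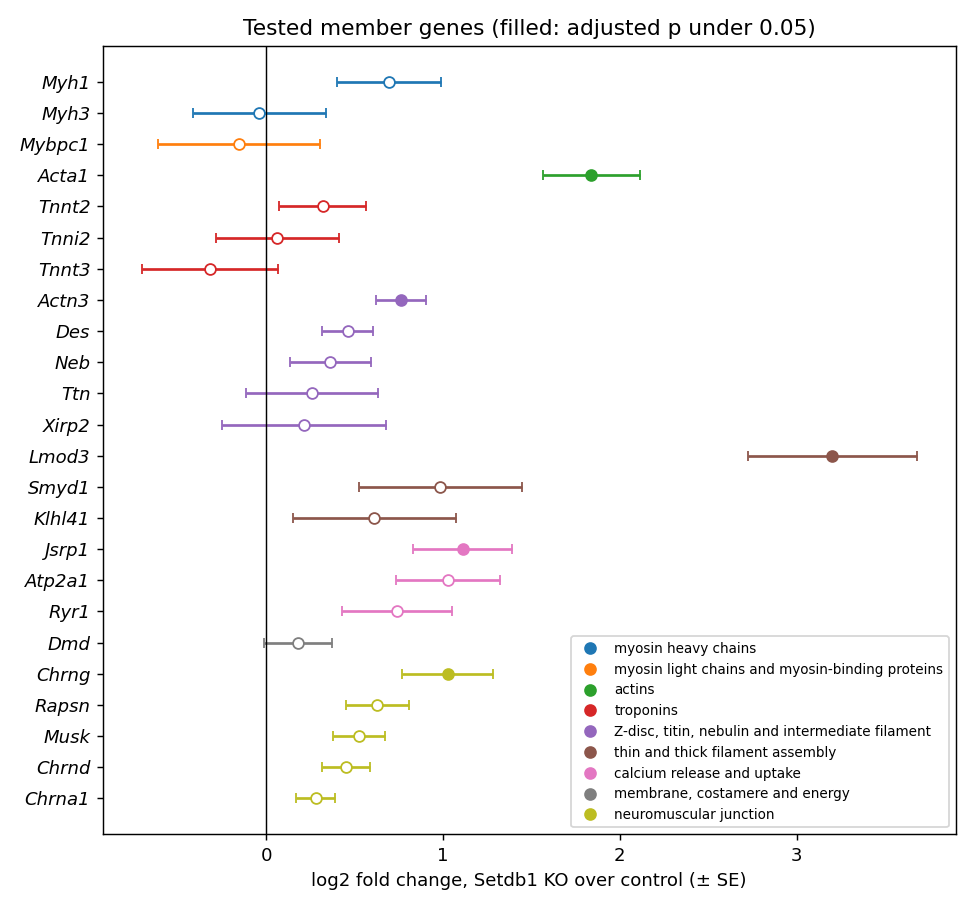
Log2 fold change of the 24 tested genes, Setdb1 KO over control, with standard error bars, coloured by role, 3 libraries in each group. Filled points passed the test (edgeR, adjusted p under 0.05). Lmod3 at 3.20 and Acta1 at 1.84 lie farthest to the right, and Myh3, Mybpc1 and Tnnt3 lie below 0.

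Levels differed widely between the genes. Expressed per kilobase of merged exons, which allows genes to be set side by side, desmin (Des) came first, at 136 ± 26.2 CPM per kb in KO cells and 98.7 ± 5.90 CPM per kb in control cells. Des took on average 46.8% of the summed level of the 48 genes in KO libraries and 48.7% in control libraries. That sum was 289 ± 36.5 CPM per kb in KO cells and 203 ± 9.20 CPM per kb in control cells. Next by level per length came Chrna1 (44.8 ± 1.54 in KO cells, 36.9 ± 1.88 in control cells), Actn3 (25.9 ± 3.59 and 15.3 ± 2.37), Chrnd (14.4 ± 0.66 and 10.5 ± 1.51), Rapsn (12.2 ± 2.35 and 7.87 ± 0.82) and Musk (9.40 ± 0.67 and 6.54 ± 1.01), all in CPM per kb with KO cells given before control cells. The libraries of Chrnd and Rapsn overlapped in KO cells, and those of Rapsn and Musk in control cells. These 6 genes held the same places in both groups. Acta1 was number 7 in KO cells at 7.13 ± 0.74 CPM per kb and number 10 in control cells at 1.98 ± 0.55, and Lmod3 was number 12 in KO cells and number 30 in control cells. Among the 6 were thus an intermediate filament gene, a Z-disc gene and 4 genes of the postsynaptic membrane, while all myosin and troponin genes and Ryr1 lay below 3 CPM per kb in both groups. With the longest annotated transcript as the length, Tnni2 was an exception, at 4.43 ± 0.93 CPM per kb in KO cells and 4.25 ± 1.28 CPM per kb in control cells.

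**Figure D2:**
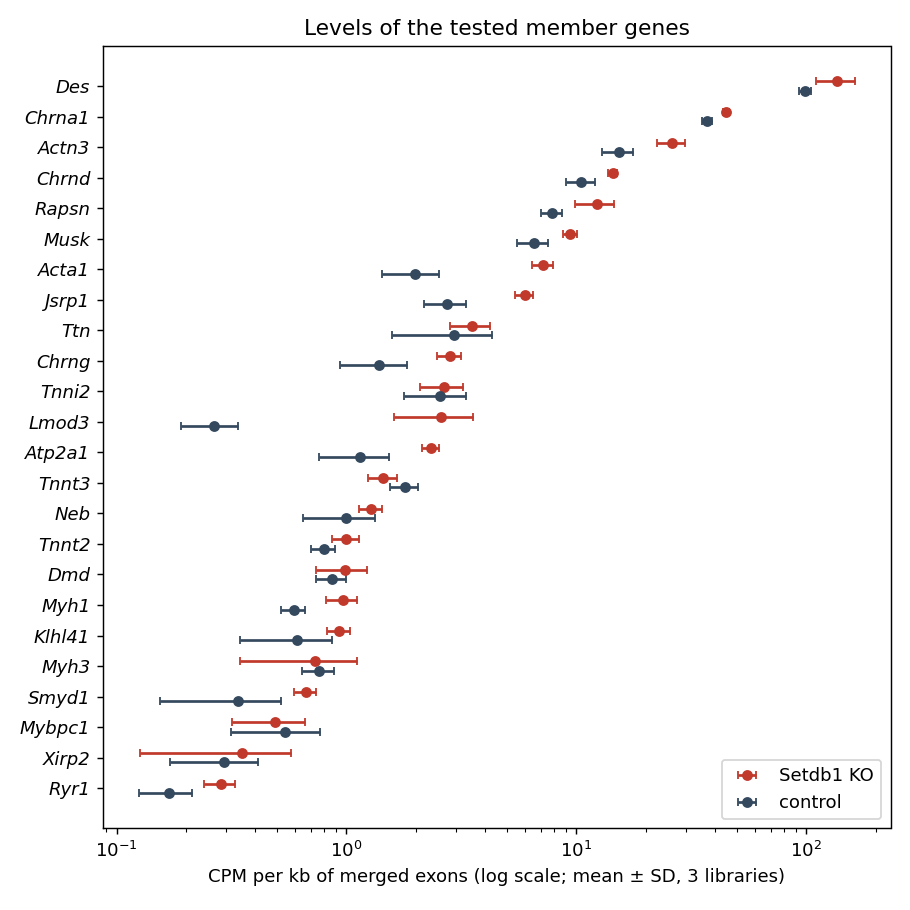
Level of the 24 tested genes in CPM per kilobase of merged exons on a log axis, mean and SD of 3 libraries, KO in red above control in blue. Des and Chrna1 lead in both groups, and Lmod3 and Acta1 show the widest gaps between groups.

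Among the 24 tested genes, Lmod3 and Acta1 had the largest log2 fold changes. Lmod3 encodes leiomodin-3, which nucleates and elongates thin filaments (ENSMUSG00000044086, chromosome 6, 97238534 to 97252759, minus strand, GRCm38). Lmod3 was at 7.98, 3.70 and 5.47 CPM in the KO libraries, against 0.60, 0.42 and 0.74 CPM in the control libraries, from 76 and 9 counts in all. Every KO library lay above every control library, with the widest spread among KO libraries. The log2 fold change was 3.20 (SE 0.48, adjusted p = 0.0012), about 9.20-fold. Acta1 encodes skeletal muscle alpha-actin, the main actin of adult fibres (ENSMUSG00000031972, chromosome 8, 123891769 to 123894751, minus strand). Its levels were 12.2, 10.1 and 10.6 CPM in KO libraries and 4.01, 2.71 and 2.40 CPM in control libraries. The groups were far apart and each was narrow, at 10.95 ± 1.14 CPM in KO cells and 3.04 ± 0.85 CPM in control cells (log2 fold change 1.84, SE 0.28, adjusted p = 0.001231). Acta1 shared 2.02% of its 50-base words with other genes, chiefly Actb and Actg1, and Lmod3 shared 0%. Both calls held in all 16 alternatives, with adjusted p up to 0.0228 for Lmod3 and 0.0145 for Acta1. Actc1, the cardiac alpha-actin that is also made early in skeletal muscle, was too low to test, with 16 counts in KO and 7 in control libraries.

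**Figure D3:**
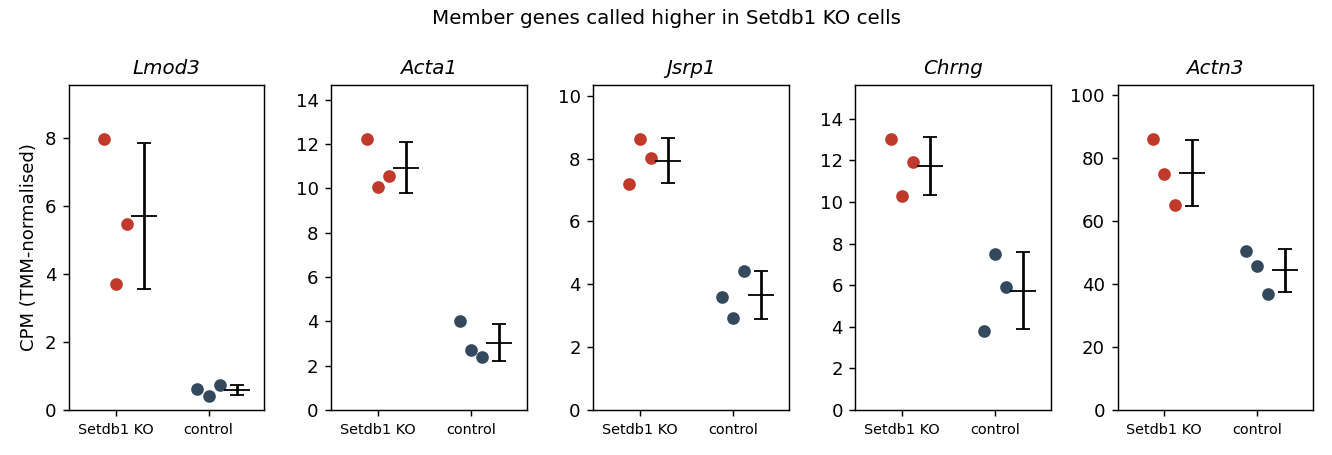
CPM in each library for the 5 genes that passed the test, KO in red on the left and control in blue on the right, with mean and SD in black, on linear axes from 0. In each of the 5 panels the lowest KO library lies above the highest control library.

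The other assembly factors were measured at low levels. Smyd1, a methyltransferase needed for thick filament assembly, was at 2.66, 3.08 and 3.32 CPM in KO libraries and 2.40, 1.46 and 0.74 CPM in control libraries. These groups did not overlap, but the difference missed the threshold (log2 fold change 0.98, SE 0.46, adjusted p = 0.2836). Klhl41, which stabilises nebulin and thin filaments, was at 2.36 ± 0.27 CPM in KO cells and 1.54 ± 0.66 CPM in control cells (adjusted p = 0.5263). Unc45b, a myosin chaperone, had 1 count in KO and 4 in control libraries.

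Among the genes of the Z-disc, the giant filaments and desmin, 1 of 5 tested rose and 0 fell (2.22% and 0.615% of all genes). Actn3 encodes the alpha-actinin of fast fibres, which crosslinks thin filaments at the Z-disc (ENSMUSG00000006457, chromosome 19, 4861216 to 4877909, minus strand). Actn3 was at 85.9, 74.7 and 65.1 CPM in KO libraries and 50.3, 45.7 and 36.8 CPM in control libraries, and the groups did not overlap. It rested on 1020 and 669 counts, far more than the other 4 genes that passed (log2 fold change 0.76, SE 0.14, adjusted p = 0.007536). Without KO library 1 the adjusted p was 0.065. Its relative Actn2, the form found in all striated fibres, had only 22 counts in KO and 8 in control libraries.

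Des, which links neighbouring Z-discs and is made already in dividing myoblasts, was at 620, 484 and 428 CPM in KO libraries and 380, 345 and 387 CPM in control libraries. KO library 1 was high, and the lowest KO library was still above the highest control library. The log2 fold change of 0.46 (SE 0.14) did not pass (adjusted p = 0.1083). Ttn, the gene of titin, which spans from Z-disc to the middle of the sarcomere, was at 435, 320 and 478 CPM in KO libraries and 520, 296 and 213 CPM in control libraries. Its groups overlapped fully, with the highest library a control (log2 fold change 0.26, SE 0.37, adjusted p = 0.7744). Neb, the gene of nebulin, the ruler along the thin filament, was at 37.2, 29.8 and 34.8 CPM in KO libraries and 35.5, 26.5 and 17.2 CPM in control libraries (log2 fold change 0.36, SE 0.23, adjusted p = 0.4492). For both Ttn and Neb, control library 1 was the highest control and control library 3 the lowest. Summed fibro-adipogenic and fibroblast markers were at 1691, 1719 and 2525 CPM in KO libraries 1, 2 and 3 and at 1961, 916 and 1423 CPM in control libraries 1, 2 and 3, and their part in the Ttn and Neb values was not tested. Xirp2, an actin-binding repeat protein of the Z-disc, was at 4.21 ± 2.69 CPM in KO cells and 3.496 ± 1.45 CPM in control cells (log2 fold change 0.21, SE 0.46, adjusted p = 0.8571).

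Myosin heavy chain transcripts were scarce. Of the 6 myosin heavy chain genes, 2 could be tested and 0 passed. Myh3, the embryonic heavy chain, was at 2.13, 6.78 and 4.30 CPM in KO libraries and 5.41, 3.97 and 4.43 CPM in control libraries, with both extremes in KO libraries (log2 fold change -0.04, SE 0.37, adjusted p = 0.9724). Myh1, an adult fast heavy chain, was at 7.18, 5.34 and 5.86 CPM in KO libraries and 4.21, 3.34 and 3.69 CPM in control libraries. The Myh1 groups did not overlap, yet the change was not called (log2 fold change 0.70, SE 0.29, adjusted p = 0.23). Heavy chain genes are near copies, and Myh1 shared 25.4% of its words with other genes, chiefly Myh2 and Myh4, so the division of reads among them is uncertain. Myh4, the fastest form, had 25 counts in KO and 8 in control libraries. The counts for Myh2, Myh7 and Myh8 (fast oxidative, slow and perinatal forms) were 5, 2 and 4 in KO libraries and 5, 3 and 1 in control libraries.

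Light chains and myosin-binding proteins were as scarce. Only Mybpc1, the slow myosin-binding protein C, was tested among these 6 genes, at 2.21 ± 0.77 CPM in KO cells and 2.45 ± 1.02 CPM in control cells (log2 fold change -0.15, SE 0.46, adjusted p = 0.9016). Mylpf, the fast regulatory light chain, had 27 counts in KO and 12 in control libraries, and its 3 KO libraries lay above the control libraries. Myl1 and Myl4, the fast and embryonic essential light chains, had 16 and 20 counts in KO libraries and 15 and 12 in control libraries. Mybph and Mybpc2 had 5 and 4 counts in KO libraries and 6 and 1 in control libraries.

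Of the troponins, which make contraction depend on calcium, 0 of 3 tested genes passed. Tnnt2, the cardiac troponin T that immature skeletal muscle also makes, was at 7.98, 6.57 and 8.60 CPM in KO libraries and 5.41, 6.26 and 6.84 CPM in control libraries, with overlap between groups (log2 fold change 0.32, SE 0.25, adjusted p = 0.5408). The fast troponin T gene Tnnt3 was at 2.29 ± 0.33 CPM in KO cells and 2.84 ± 0.41 CPM in control cells (log2 fold change -0.32, SE 0.38, adjusted p = 0.7126). Tnni2, fast troponin I, was at 3.46, 4.93 and 3.52 CPM in KO libraries and 5.01, 2.71 and 3.69 CPM in control libraries (adjusted p = 0.9493). Over all 7 troponin genes the summed level was 17.3, 17.5 and 17.8 CPM in KO libraries and 18.4, 14.6 and 16.6 CPM in control libraries. In contrast, the sum of the 2 actin genes was 14.6, 10.7 and 11.3 CPM in KO libraries and 4.41, 3.34 and 2.77 CPM in control libraries. Actin transcripts were thus separated between groups while troponin transcripts overlapped, and the difference between these roles was not tested.

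Calcium release and uptake genes lay higher in KO cells throughout the tested set, with 1 of 3 past the threshold (2.22% of all genes were higher). Jsrp1 encodes a junctional protein of the sarcoplasmic reticulum that binds the voltage sensor and calsequestrin (ENSMUSG00000020216, chromosome 10, 80808496 to 80813498, minus strand). It was at 7.18, 8.62 and 8.01 CPM in KO libraries and 3.61, 2.92 and 4.43 CPM in control libraries, well apart. Its log2 fold change of 1.11 (SE 0.28) passed narrowly (adjusted p = 0.04607) and held in 6 of 16 alternatives, with adjusted p from 0.0345 to 0.459. It was lost on leaving out each library other than control library 3 (at most 0.186).

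Atp2a1, the calcium pump SERCA of fast fibres, was at 8.78, 7.39 and 8.21 CPM in KO libraries and 5.41, 3.76 and 2.77 CPM in control libraries. The groups did not overlap, and the change missed the threshold (log2 fold change 1.03, SE 0.29, adjusted p = 0.08113). Exons of Atp2a1 overlap those of Rabep2 on the other strand, and the sources used here do not state whether counting used strand. Ryr1, the release channel, was at 6.38, 5.13 and 7.04 CPM in KO libraries and 4.81, 3.13 and 3.14 CPM in control libraries, again without overlap (log2 fold change 0.74, SE 0.31, adjusted p = 0.2262). Casq1 and Casq2, the calcium stores of fast and of slow or cardiac reticulum, had 28 and 4 counts in KO libraries and 19 and 6 in control libraries.

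At the membrane, Dmd, the gene of dystrophin, was at 23.4 ± 5.89 CPM in KO cells and 20.6 ± 3.08 CPM in control cells (log2 fold change 0.18, SE 0.19, adjusted p = 0.6735). Ckm, the muscle creatine kinase gene, had 5, 6 and 6 counts in KO libraries and 3, 0 and 0 in control libraries, too few to test. Cav3, the muscle caveolin gene, had 12 counts in KO and 6 in control libraries, and Itgb1bp2, a gene of an integrin-binding protein, had 1 and 5.

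All 5 neuromuscular junction genes had enough counts to be tested, and Chrna1, Chrnd, Rapsn and Musk were among the 6 highest members per length. In all 5 every KO library lay above every control library (12.8% of all genes did so), and 1 of 5 passed the test (2.22% of all genes were higher). Chrng encodes the gamma subunit of the fetal acetylcholine receptor, which is replaced by the epsilon subunit in innervated adult muscle (ENSMUSG00000026253, chromosome 1, 87204657 to 87212694, plus strand). Its level was 13.0, 10.3 and 11.9 CPM in KO libraries and 3.81, 7.52 and 5.91 CPM in control libraries (log2 fold change 1.03, SE 0.26, adjusted p = 0.04627). Chrng rose by the test used throughout but passed in only 4 of 16 alternatives, with adjusted p from 0.0118 to 0.392. It was lost on leaving out each library other than control library 2 (at most 0.183).

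Its neighbour Chrnd, the delta subunit gene (chromosome 1, 87190607 to 87200070, same strand), was at 48.1, 44.8 and 48.9 CPM in KO libraries and 29.6, 34.2 and 39.5 CPM in control libraries. The change was smaller and missed the threshold (log2 fold change 0.45, SE 0.14, adjusted p = 0.09421). Without control library 3, the control library nearest to the KO values, Chrnd passed (adjusted p = 0.0448). It did not pass when any other single library was left out (adjusted p up to 0.288). Of the 16 alternatives it passed in 2, with adjusted p up to 0.576. Chrna1, the alpha subunit gene that binds acetylcholine, was at 201, 199.6 and 189 CPM in KO libraries and 165, 168 and 152 CPM in control libraries. The spread within each group was narrow and the step between them small (log2 fold change 0.28, SE 0.11, adjusted p = 0.2065). Chrnb1, the beta subunit gene, which is outside the 48 genes, was at 47.3, 51.1 and 44.0 CPM in KO libraries and 38.1, 42.4 and 47.3 CPM in control libraries, with overlap (log2 fold change 0.16, SE 0.13, adjusted p = 0.563). The adult epsilon subunit gene Chrne had 3 counts in KO libraries and 0 in control libraries. Per kilobase, Chrng was at 2.82 CPM in KO cells and 1.38 CPM in control cells, above Chrne in both groups (0.1435 in KO cells and 0 in control cells).

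Of the genes of receptor clustering, neither Rapsn nor Musk passed. Rapsn, whose product rapsyn anchors the receptors, was at 26.9, 20.3 and 19.0 CPM in KO libraries and 15.8, 13.8 and 12.9 CPM in control libraries. KO library 1 was the highest, and the change missed the threshold (log2 fold change 0.63, SE 0.18, adjusted p = 0.07509). Musk, the kinase that receives the nerve signal agrin, was at 34.0, 38.4 and 34.0 CPM in KO libraries and 26.4, 27.4 and 20.3 CPM in control libraries (log2 fold change 0.53, SE 0.15, adjusted p = 0.07472). Lrp4, the agrin receptor that partners Musk, lay the other way, at 15.1 ± 2.01 CPM in KO cells and 23.0 ± 1.95 CPM in control cells, and was not called (log2 fold change -0.61, SE 0.16, adjusted p = 0.05918).

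**Figure D4:**
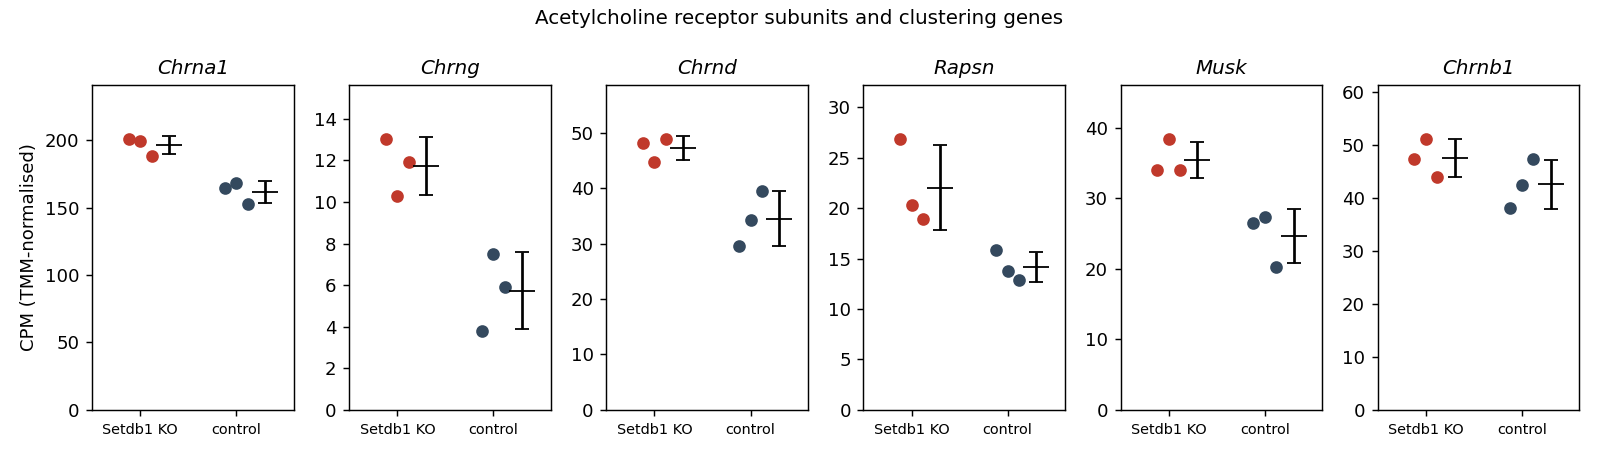
CPM in each library for the 5 neuromuscular junction genes and for Chrnb1, KO in red on the left and control in blue on the right, with mean and SD in black, on linear axes from 0. The groups are apart for the first 5 genes and overlap for Chrnb1, and the log2 fold change is largest for Chrng, at 1.03.

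Acta1 and Chrng were the members past the threshold with an entry in the RefSeq promoter table (GRCm38.p6). Among the junction genes not called, Chrna1 and Musk had an entry. The promoters of all these genes are shown with E-boxes, sites that the product of Myod1 binds, and binding was not measured. Each runs from 250 bases before to 50 bases after the RefSeq start, 5′ to 3′ on the strand of the gene, with every E-box (CANNTG, a palindrome, so both strands are covered) in capitals.
Acta1 (GRCm38.p6, chr8:123894726-123895025, minus strand): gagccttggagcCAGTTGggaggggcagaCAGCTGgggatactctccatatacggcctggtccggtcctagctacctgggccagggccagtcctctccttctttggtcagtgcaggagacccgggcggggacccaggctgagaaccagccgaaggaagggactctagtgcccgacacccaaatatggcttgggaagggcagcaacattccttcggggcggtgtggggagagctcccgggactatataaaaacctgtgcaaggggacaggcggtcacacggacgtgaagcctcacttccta
Chrng (GRCm38.p6, chr1:87205561-87205860, plus strand): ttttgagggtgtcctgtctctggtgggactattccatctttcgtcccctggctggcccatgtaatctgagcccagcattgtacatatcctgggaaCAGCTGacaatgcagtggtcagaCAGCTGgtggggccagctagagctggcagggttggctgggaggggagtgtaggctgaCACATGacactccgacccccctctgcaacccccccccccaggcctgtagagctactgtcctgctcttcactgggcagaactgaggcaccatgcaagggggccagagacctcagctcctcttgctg
Chrna1 (GRCm38.p6, chr2:73580289-73580588, minus strand): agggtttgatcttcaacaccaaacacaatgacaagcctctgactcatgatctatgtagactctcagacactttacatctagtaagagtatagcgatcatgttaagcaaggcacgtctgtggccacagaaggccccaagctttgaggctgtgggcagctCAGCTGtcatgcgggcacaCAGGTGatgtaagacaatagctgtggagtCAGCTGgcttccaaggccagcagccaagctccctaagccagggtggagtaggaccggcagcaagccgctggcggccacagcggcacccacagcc
Musk (GRCm38.p6, chr4:58285712-58286011, plus strand): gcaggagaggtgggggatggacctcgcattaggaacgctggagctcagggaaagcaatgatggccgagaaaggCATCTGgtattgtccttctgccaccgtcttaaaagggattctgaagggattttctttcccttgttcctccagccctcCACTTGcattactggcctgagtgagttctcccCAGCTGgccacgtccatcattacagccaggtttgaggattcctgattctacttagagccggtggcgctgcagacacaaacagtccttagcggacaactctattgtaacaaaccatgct

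All 4 windows hold at least 1 copy of CAGCTG, the E-box variant preferred by Myod1 and Myog. In Chrng, copies of CAGCTG begin 155 and 132 bases before the start, in Chrna1 92 and 44, in Musk 68 and in Acta1 221. Of the 40 promoter entries of 36 of the 48 genes, 34 (85%) hold CANNTG and 18 (45%) hold CAGCTG, which is a special case of CANNTG. Entries of the same gene can overlap, so a site can count more than once. The same CAGCTG lies in both entries of Tnni1, and the same E-boxes lie in both entries of Myh7. Of all 32851 promoter entries, 72.3% hold CANNTG and 16.3% hold CAGCTG. The CArG box, the motif of serum response factor, was in 4 of 40 entries (10%), including that of Acta1, against 1.63% of all entries, and the MEF2 site was in 8 of 40 (20%), against 3.19%. These matches are letters within a window and were not tied to any measured difference.

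The other 24 genes had between 1 and 28 counts in all KO libraries together and 0 to 33 in all control libraries. Their summed counts were 94, 95 and 77 in KO libraries and 75, 50 and 53 in control libraries, or 25.0, 19.5 and 15.1 CPM in KO libraries and 15.02, 10.4 and 9.79 CPM in control libraries. The lowest KO library thus lay level with the highest control library. The mean was higher in KO cells for 17 and lower for 7. The share over all untested genes was not counted. With no low-count filter, the median log2 fold change was 0.42 over all 34908 genes with counts, against 0.01 over the 11224 tested genes. Low-count genes as a whole thus leaned toward KO cells. Neither this split nor the higher sums can be read as particular to these 24 genes. Count ratios with exact 95% intervals, which allow for counting error but leave out differences from mouse to mouse, were 6.26 for Ckm (1.81 to 33.4), 3.45 for Myh4 (1.51 to 8.86), 3.04 for Actn2 (1.30 to 7.90) and 2.49 for Mylpf (1.22 to 5.39). The intervals of the other untested genes for which a ratio could be formed included 1. Myoz1, Tcap and Myot, genes of Z-disc proteins of mature fibres, had 3, 3 and 2 counts in KO libraries and 0 in control libraries, at or under the floor of 3 counts over a group. The slow or cardiac genes Tnnt1, Tnni1 and Tnnc1 had 25, 2 and 5 counts in KO libraries and 33, 6 and 3 in control libraries, and Tnnc2, the fast troponin C gene, had 17 and 15.

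**Figure D5:**
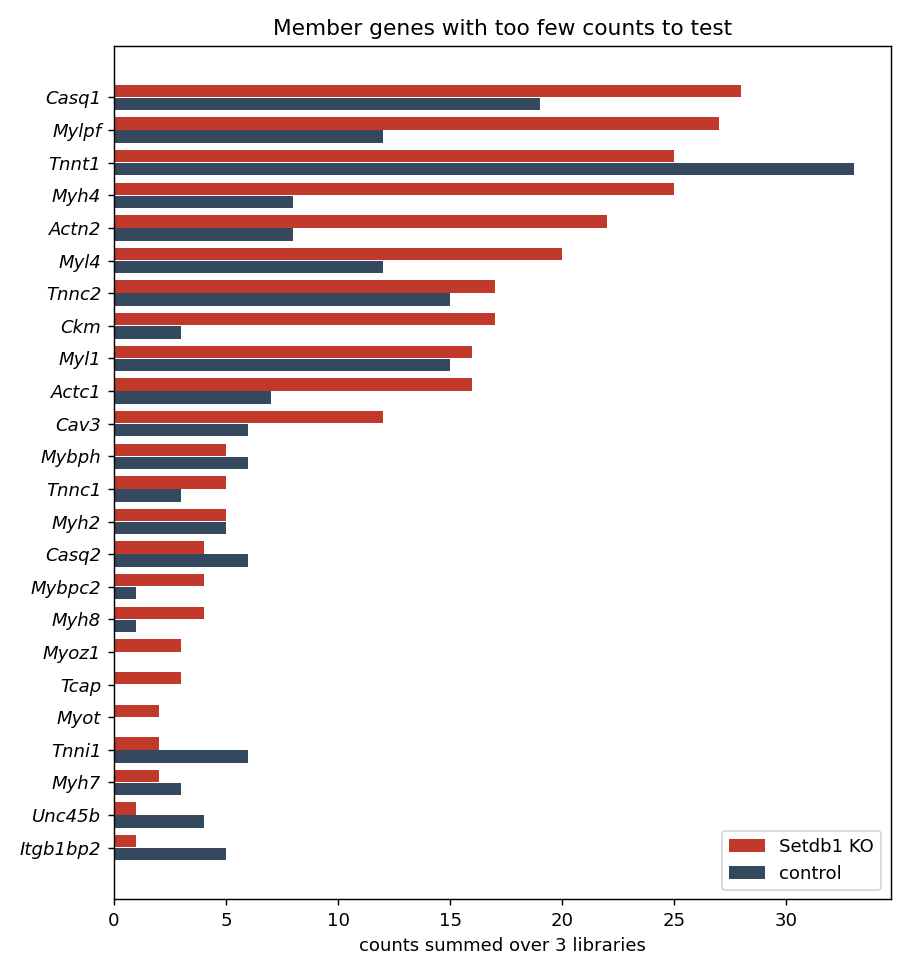
Counts summed over 3 libraries for the 24 genes left out by the low-count filter, KO in red above control in blue. Casq1 has the most KO counts, at 28, Tnnt1 the most control counts, at 33, and Myoz1, Tcap and Myot have 0 in control.

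Related genes outside the 48 moved in both directions. Of 61 other sarcomere genes matched, 27 were tested, 3 were higher and 1 lower, with a median log2 fold change of 0.24. Over all genes tested, 2.22% were higher and 0.615% lower. Cryab, a small heat shock protein that guards desmin and the Z-disc, rose to 76.1, 55.0 and 56.9 CPM in KO libraries, against 25.6, 22.3 and 25.5 CPM in control libraries (log2 fold change 1.35, SE 0.15, adjusted p = 7.935e-05). Its exons overlap those of Hspb2 on the other strand. Hspb8, another small heat shock protein, rose (log2 fold change 0.86, SE 0.16, adjusted p = 0.008499), though not without KO library 1 (adjusted p = 0.0589) or with DESeq2 (adjusted p = 0.138). Xirp1, a relative of Xirp2, rose too (1.30, SE 0.33, adjusted p = 0.04562), a call lost whichever of the 6 libraries was left out (at most 0.178) and with DESeq2 (0.367). Tpm1, the tropomyosin gene with both muscle and non-muscle forms, fell to 194, 209 and 196 CPM in KO libraries, against 292, 366 and 327 CPM in control libraries (log2 fold change -0.71, SE 0.12, adjusted p = 0.003874), and missed the threshold without control library 2 (adjusted p = 0.0521).

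Of 35 other excitation-contraction and calcium genes, 18 were tested, 1 was higher and 0 lower (2.22% and 0.615% of all genes), with a median of 0.27. Stac3, an essential partner of the voltage sensor, was the gene that rose, to 3.99, 4.72 and 7.04 CPM in KO libraries, against 1.602, 1.04 and 0.92 CPM in control libraries (log2 fold change 2.13, SE 0.41, adjusted p = 0.009853). Like Lmod3, Stac3 reached the low-count filter through its KO libraries alone, so its place among the genes counted as higher adds no support. Leaving out control library 2 gave an adjusted p of 0.0607, leaving out KO library 3 gave 0.0944, and DESeq2 gave 0.109. The voltage sensor gene Cacna1s had 4 counts in KO libraries and 0 in control libraries. Among 24 other junction and dystrophin complex genes, 19 were tested, 0 passed in edgeR (2.83% of all genes did) and 0 were higher in DESeq2. With no adjustment 3 were higher and 1 lower at p under 0.05 in edgeR (10.1% and 7.64% of all genes), and the median was 0.09. Cavin1 and Dag1 were the most abundant, at 391.8 ± 35.3 and 384 ± 60.8 CPM in KO cells and 367 ± 14.7 and 331 ± 56.5 CPM in control cells.

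The regulators of this programme moved in both directions. Of 12 tested myogenic transcription factors, 1 rose and 1 fell (2.22% and 0.615% of all genes), with a median log2 fold change of 0.02. Myod1 rose to 361.5, 276 and 238 CPM in KO libraries, against 141, 148 and 137 CPM in control libraries (log2 fold change 1.04, SE 0.15, adjusted p = 0.0007791). The homeobox gene Six4 fell to 43.0 ± 0.85 CPM in KO cells, against 63.7 ± 5.97 CPM in control cells (adjusted p = 0.01704), a call lost on leaving out control library 2 (0.135) or each KO library (at most 0.0796) and with DESeq2 (0.0603). Myog, which drives terminal differentiation, was at 9.31, 5.54 and 5.08 CPM in KO libraries and 4.21, 5.22 and 2.22 CPM in control libraries (adjusted p = 0.2882). Myf5 was at 36.7 ± 4.56 CPM in KO cells and 37.2 ± 10.8 CPM in control cells. Mef2c, too low to test, was at 2.27 ± 0.84 CPM in KO cells and 1.36 ± 0.81 CPM in control cells. Of 11 tested fusion genes, 0 rose and 1 fell (2.22% and 0.615% of all genes). Mymk, which encodes the fusogen myomaker, was at 4.66 ± 0.65 CPM in KO cells and 3.02 ± 1.39 CPM in control cells (adjusted p = 0.4057), and the cadherin gene Cdh2 fell (log2 fold change -0.49, SE 0.12, adjusted p = 0.04346), a call that held only when control library 3 or KO library 3 was the one left out (adjusted p up to 0.175 otherwise), and that was lost with library totals alone (0.0799), DESeq2 (0.0853), limma-voom (0.0737) and the block (0.0939).

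Markers of other cells were measured beside these genes. Among 12 adult myofibre markers outside the 48, Pvalb, Mb, Ckmt2, Cox6a2 and Myl2 had 2, 4, 1, 1 and 2 counts in KO libraries and 0 in control libraries. Pgam2, Ampd1, Cox8b and Myl3 were also too low to test. Over the 12, the mean was higher in KO cells for 11 and lower for 1. Of these 12, 9 were too low to test, and low-count genes as a whole leaned the same way. With no low-count filter, the median log2 fold change over all genes with counts was 0.42. The split is therefore not read as a gain of myofibre transcripts. Eno3, Pygm and Cacng1, the 3 tested, did not pass (adjusted p = 0.3664, 0.156 and 0.07472). In these 3 every KO library lay above every control library (12.8% of all genes did so), and their median log2 fold change was 0.84. The summed level of this list, mostly Eno3, was 132 to 144 CPM in KO libraries and 110 to 119 CPM in control libraries. Of 7 tested smooth muscle and mural markers, Acta2 and Tagln rose (log2 fold changes 0.72 and 1.51) and 0 fell (2.22% of all genes were higher and 0.615% lower). The fold change was positive in 5 of 7 (50.9% of all genes), and the median was 0.72. In 4 of 7 every KO library lay above every control library (12.8% of all genes did so). The list sum was 179 to 224 CPM in KO libraries and 98.1 to 137 CPM in control libraries. Over all 11 listed smooth muscle and mural markers, the mean was higher in KO cells for 7 and lower for 4. Myh11 and Cnn1, named after their values were seen, had 25 and 0 counts in KO libraries and 30 and 4 in control libraries. No fibro-adipogenic marker of 10 passed in edgeR (2.83% of all genes did). With no adjustment 2 of these markers were higher and 1 lower at p under 0.05 (10.1% and 7.64% of all genes). The fold change was positive in 9 of 10 (50.9% of all genes). The median was 0.54, beside 0.49 for the tested sarcomere and excitation-contraction genes and 0.01 over all genes tested. The list sums were 1691 to 2525 CPM in KO libraries and 916 to 1961 CPM in control libraries. The sums of endothelial and macrophage markers were 12.3 to 18.1 and 11.97 to 42.5 CPM in KO libraries and 5.85 to 13.4 and 10.2 to 103 CPM in control libraries. The part of these cell types in the results was not tested.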

How the data were processed

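Per the labels' protocols, ribosomal RNA was depleted from 400 ng of total RNA, and paired reads of 75 bases were sequenced. The labels name a stranded total RNA kit and also a SMARTER kit. STAR, Salmon and DESeq2 1.34.0 with GRCm38 are named in the submitters' processing notes, and which of these counted the reads, with which strand setting, is not given in the sources used here. Raw counts, in whole numbers for each Ensembl gene, are what the authors deposited. Symbols and positions came from GENCODE M21 (GRCm38).

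Counts were tested with edgeR 4.0.16 in R 4.3.3 (quasi-likelihood, robust, TMM, default filter, two-sided), with Benjamini-Hochberg adjustment over 11224 genes and a threshold of 0.05. Each SE was the log2 fold change over the root of F. The procedure was run on 10 simulated data sets with 200 genes changed in each, drawn from the means and dispersions of the tested genes. These sets did not model differences in cell types between libraries. Their outcome is not given here, and no result rests on it. Alternatives are named in the closing section. limma 3.58.1, DESeq2 1.42.0, Python 3.11.15, pandas 2.3.3, SciPy 1.17.1 and matplotlib 3.10.9 were used. Motifs and shared 50-base words were counted on both strands and on transcripts. Genes named with values were those called, and the most abundant and most changed tested member of each role. In related lists, up to 4 called genes were named. Replicates were labelled biological, and no 2 libraries of a group agreed within sampling noise. Members, lists, alternatives and the naming rule were chosen with earlier results of these data known. Cacna1s, Chrnb1, Chrne and Lrp4, and the marker genes given with counts, were named after their values were seen.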

Additional observations from a re-analysis of the deposited data

How the results depend on the processing

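With 3 libraries a group, 24 of the 48 genes had too few counts to be tested. The 16 alternatives were 3 other scalings (DESeq2 size factors, upper quartile factors, library totals alone), 2 other filters (none, at least 1 CPM in 3 libraries), DESeq2, limma-voom, a replicate block, removal of mitochondrial and structural RNA genes, each library left out, and control library 3 left out with KO library 1. The count of 5 members higher in KO cells was 3 with library totals alone, with at least 1 CPM in 3 libraries, with DESeq2 and with limma-voom, and 2 to 5 with 1 library left out. Lower members numbered 0 with 1 library left out, and the median log2 fold change was 0.44 to 0.60. Genes changed over all genes tested numbered 318, but 405 with mitochondrial and structural RNA genes removed, 511 with no low-count filter, 184 with DESeq2, 200 with limma-voom and 152 to 345 with 1 library left out. The replicate number as a block gave 3 members higher and 247 genes changed in all. Same-numbered libraries correlated at 0.14, -0.09 and -0.06 in their deviations, so the numbers were not taken to pair the libraries.

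Other sarcomere genes higher (3) numbered 1 to 2 with 1 library left out. Other excitation-contraction genes higher (1) numbered 2 with no low-count filter, 0 with DESeq2 and 0 to 1 with 1 library left out, and other junction genes (0) 0 to 1. The summed level per length in KO cells was 336 CPM per kb with the longest annotated transcript as the length. Log2 fold changes near 0 that missed the threshold changed sign when 1 library was left out, with ranges of -0.41 to 0.22 for Mybpc1, -0.48 to 0.26 for Myh3, -0.13 to 0.30 for Tnni2, -0.37 to 0.61 for Xirp2, -0.16 to 0.24 for Myf5 and -0.22 to 0.15 for Pax7. Leaving out control library 3 with KO library 1 gave 0.23 for Myh3 and -0.0344 for Ttn. Library totals alone gave -0.0052 for Tnni2, and upper quartile factors gave 0.0015 for Myf5 and 0.0025 for Pax7. Myf5 was at 0.0286 with limma-voom and at 0.0104 with the block. The cause of these changes was not tested.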
